A study of Mus musculus with 3 samples.

Results

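The 10 genes described here are Atf4, the transcription factor at the centre of the integrated stress response, 8 genes that it switches on or that act beside it (Atf3, Atf5, Ddit3, Ddit4, Trib3, Asns, Chac1 and Sesn2), and Xbp1, a transcription factor of the unfolded protein response (UPR). They were taken by symbol and are 10 of the 50600 genes in the deposited tables. RNA of mouse T-helper 1 cells, CD4 T cells that make interferon gamma, was sequenced in 3 libraries, all of 1 group. They were primary cells from strain C57BL/6NJ with no labelled allele or treatment, and the file headers name a time course of Th1 and Th2 cells and its 48 h point. The labels give 1 donor identifier for all 3 libraries and number them as biological replicates 1, 2 and 3. Separate animals or cultures are not stated, so every p-value below measures only the spread between these libraries, which may be technical. The labels give neither sex nor age.

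The integrated stress response starts when a kinase such as PERK, GCN2, PKR or HRI phosphorylates the translation factor eIF2alpha. General protein synthesis then slows while the Atf4 mRNA is translated more, so the Atf4 mRNA level is not a measure of ATF4 protein. ATF4 pairs with C/EBP proteins and other bZIP factors and switches on genes of amino-acid supply, of the response to oxidants and of cell death. In the UPR the sensor IRE1 (gene Ern1) removes a short intron from the Xbp1 mRNA, and the spliced form encodes the active factor, a change that counts per gene do not show. Activated T cells use both pathways, since dividing and secreting cells need amino acids and endoplasmic reticulum (ER) capacity.

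Replicate 2 was a shallow library. The tables held 4742025, 50627 and 3543816 fragments in replicates 1, 2 and 3, so that a single count equals 0.211, 19.8 and 0.282 CPM (counts scaled to a common total). All 10 genes had counts in replicates 1 and 3, and 7 of 10 in replicate 2. All 6 T-cell markers (Cd3d, Cd3e, Cd3g, Cd4, Trac and Thy1) were above 1 TPM (counts per gene length, scaled to a common sum) in every library, with summed levels of 1117, 815 and 436 TPM. Of the other cell types looked for, the 3 natural killer markers were at 0 counts, as were Ms4a1 and Pax5 of B cells and Cd8a. Cd79a, also of B cells, had 10, 0 and 22 counts, Cd79b 1, 0 and 2, and Cd8b1 21, 1 and 13. Of the 5 myeloid markers 4 were at 0, while Csf1r, 17.8% of whose exonic length lies under exons of the other strand, stood at 105, 84.5 and 167 TPM. The plasma-cell marker Jchain was at 0, and that list summed to 2.41, 0 and 1.16 TPM. In bulk RNA, fewer cells of a type and less RNA per cell cannot be told apart. The part of other cells in the levels below was not tested.

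The promoters of 4 of the 10 genes hold the letters that ATF4 with a C/EBP partner is known to bind, and these are printed below. Sequences are RefSeq promoters (build GRCm38.p6, 250 bases before to 50 after each start) and were matched for 10 of 10 genes, with 11 promoters. The motif searched was TGATGNAA, on both strands, known as the C/EBP-ATF response element or CARE. It was found in the promoters of Atf3, Chac1, Trib3 and Asns, and in 3.97% of all 32851 promoters of the same length. Capitals mark the motif, and each run is written 5′ to 3′ along the gene's own strand, so that a motif on the other strand appears as its reverse complement.
Atf3: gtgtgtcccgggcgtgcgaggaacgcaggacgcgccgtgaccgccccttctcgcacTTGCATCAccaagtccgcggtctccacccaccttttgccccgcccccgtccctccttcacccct
Chac1: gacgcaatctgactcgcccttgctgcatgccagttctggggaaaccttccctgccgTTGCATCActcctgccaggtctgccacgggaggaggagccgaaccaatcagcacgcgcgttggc
Trib3: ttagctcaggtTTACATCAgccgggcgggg
Asns: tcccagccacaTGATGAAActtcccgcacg
The Atf3 window is chr1:191183380-191183499 on the minus strand and its motif lies at −110 to −103 from the start, on the other strand of the gene. That window lies inside the span of Atf3 as counted, 191170296 to 191218039, and not at its 5′ end. The Chac1 window is chr2:119350993-119351112 on the plus strand, with the motif at −193 to −186, again on the other strand. The Trib3 window, chr2:152344028-152344057 on the minus strand, has the motif 15 to 22 bases after the start, on the other strand. In the Asns window, chr6:7693214-7693243 on the minus strand, the motif is on the gene's own strand, at −23 to −16 from the RefSeq start and inside an exon of the files' annotation. The TTGCATCA of Atf3 and of Chac1 is the same 8 letters, while Trib3 has TTACATCA. The cyclic AMP response element TGACGTCA was in 1.79% of all promoters. The UPR element core TGACGTGG was in 0.676%, and the ER stress element (CCAAT and CCACG with 9 bases between) was in 0.119%. None of these 3 was found in a promoter of the 10 genes. A match is a description of the letters and shows no binding.

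Atf4 had the highest counted level of the 10 in every library, subject to the strand limit given below. In replicate 2 its 18 counts stood against 10 of Ddit3, a difference within counting error. Atf4 (ENSMUSG00000042406.7, chromosome 15, 80255184 to 80257540, plus strand, mm10) had 2084, 18 and 854 counts in replicates 1, 2 and 3, or 565, 431 and 251 TPM. Its mean was 416 ± 157 TPM (SD, n = 3). The 95% counting intervals (exact Poisson) were 541 to 589, 255 to 681 and 235 to 269 TPM, so replicates 1 and 3 differed beyond counting error. The TPM levels put Atf4 among the top 1.70%, 5.32% and 3.79% of genes with a count in replicates 1, 2 and 3. Over the 3 libraries, the genes closest to Atf4 by Euclidean distance in log2(TPM + 1), out of 7405, were the ribosomal protein genes Rpl10 (distance 0.153) and Rps3 (0.191) and the elongation factor gene Eef1g (0.219). Rpl10 stood at 611, 463 and 254 TPM. Proximity here is one of level over 3 libraries only.

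The bZIP factors Ddit3 and Atf5 came next in counted level in both deep libraries, subject to the same strand limit. Both share exon positions with genes on the other strand, as given below. Whether these set their levels was not tested. Ddit3, which encodes CHOP, a factor known for its role in death under lasting ER stress, lies on chromosome 10 (127290774 to 127296288, plus strand). It had 463, 10 and 643 counts, or 126, 241 and 190 TPM, with a mean of 186 ± 57.5 TPM (SD, n = 3). Atf5, a relative of ATF4 that is also translated more under stress and is known for the mitochondrial UPR, lies on chromosome 7 (44812256 to 44816658, minus strand). Its counts were 487, 3 and 567, or 114, 62.1 and 144 TPM (107 ± 41.6, SD, n = 3). Both genes had higher levels in replicate 3 than in replicate 1, the opposite of Atf4. Atf3 (chromosome 1, 191170296 to 191218039, minus strand), a bZIP factor induced early in many stresses, was much lower. It had 81, 1 and 36 counts, or 17.6, 19.2 and 8.48 TPM (15.1 ± 5.76, SD, n = 3).

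Of the targets that act on metabolism, Asns led. Asns encodes asparagine synthetase and lies on chromosome 6 (7675169 to 7693254, minus strand). Its counts were 221, 1 and 77, or 37.7, 15.1 and 14.3 TPM (22.4 ± 13.3, SD, n = 3). Chac1, which encodes an enzyme that degrades glutathione, lies on chromosome 2 (119351229 to 119354381, plus strand) and was the lowest of the 10 in replicate 1. It had 17, 0 and 14 counts, or 4.85 TPM in replicate 1 and 4.34 TPM in replicate 3. In replicate 2 a count of 0 allows up to 75.7 TPM (3 counts), so that library says nothing about a gene at this level.

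The inhibitors of growth signalling spanned a wide range. Ddit4, known as REDD1, a brake on the kinase mTORC1, lies on chromosome 10 (59949669 to 59951834, minus strand) and had 158, 0 and 83 counts. Its level was 42.0 TPM in replicate 1 and 24.0 TPM in replicate 3, and the 0 in replicate 2 allows up to 70.6 TPM. Sesn2, a leucine sensor that also restrains mTORC1, lies on chromosome 4 (132492032 to 132510501, minus strand). It had 104, 1 and 50 counts, or 14.0, 11.9 and 7.30 TPM (11.1 ± 3.42, SD, n = 3). Trib3, a pseudokinase that binds ATF4 and CHOP and dampens the response, lies on chromosome 2 (152337422 to 152344032, minus strand). Its counts were 33, 0 and 13, or 7.25 TPM in replicate 1 and 3.10 TPM in replicate 3, with a limit of 58.3 TPM in replicate 2.

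Xbp1 (chromosome 11, 5520659 to 5525893, plus strand) had 236, 6 and 87 counts, or 33.9, 76.3 and 13.6 TPM (41.3 ± 32.0, SD, n = 3). The high value in replicate 2 rests on 6 counts and has a counting interval of 28.0 to 166 TPM. That interval reaches below the level in replicate 1 and not as low as that in replicate 3. All 10 genes were above 1 TPM in both deep libraries, and the 7 with a count in replicate 2 were above it there too. Scaling TPM over genes without exons of the other strand, which leaves out Atf5 and Ddit3, raised the levels of the 8 other genes, for Atf4 to a mean of 1402 TPM, since the sum it divides by is smaller.

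**Figure D1:**
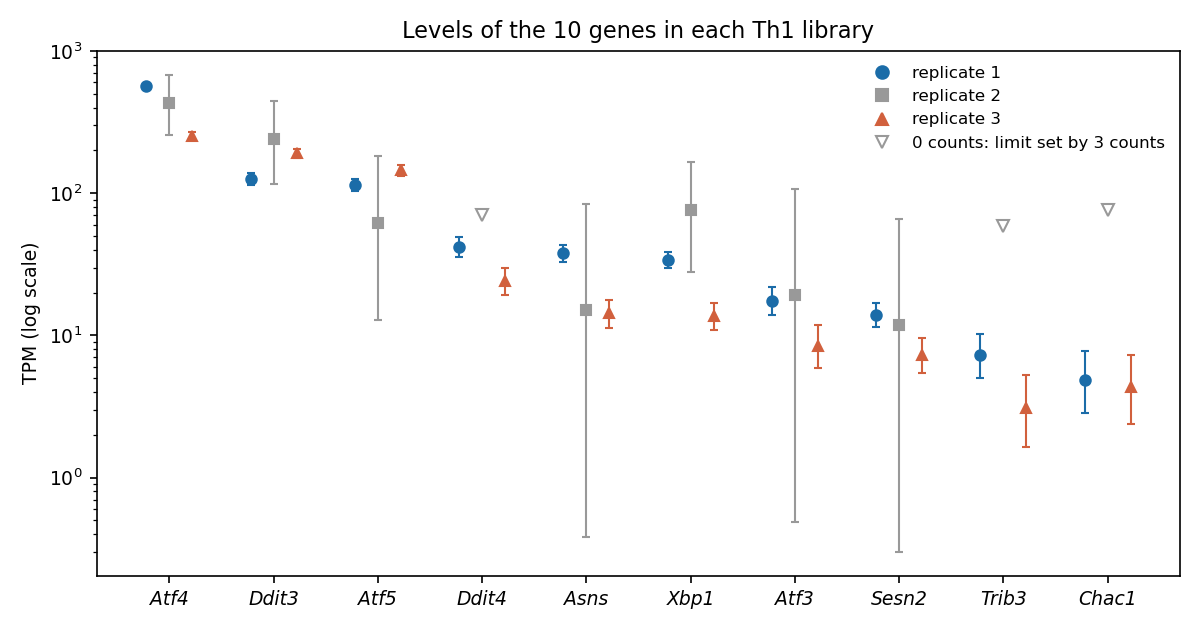
Level of each gene in TPM (log axis) in replicates 1, 2 and 3, with exact 95% counting intervals. Open triangles are the limits set by 3 counts where replicate 2 had 0. Atf4 is the top point in every library, at 565, 431 and 251 TPM, and the intervals of replicate 2 are the widest.

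The order of the 10 genes was nearly the same in both deep libraries. In replicate 1 it ran Atf4, Ddit3, Atf5, Ddit4, Asns, Xbp1, Atf3, Sesn2, Trib3 and Chac1, from high to low. Replicate 3 differed by the exchange of Trib3 and Chac1, which lay within counting error of each other in both. In replicate 1 the neighbours Ddit3 and Atf5, Ddit4 and Asns, Asns and Xbp1, and Atf3 and Sesn2 also did not differ beyond counting error. In replicate 3 the same held of Asns and Xbp1, Atf3 and Sesn2, and Sesn2 and Chac1.

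Each target was set against Atf4 within its own library, on the log2 scale of the TPM ratio, which is free of the library's depth. All 9 genes were below Atf4 in every library that had a count of them. The exact sign-flip permutation test over libraries (two-sided) gave p = 0.25 for the 6 genes seen in 3 libraries and p = 0.50 for the 3 seen in 2. These are the smallest values that such designs allow (adjusted over the 9 ratios, 0.375 and 0.50), so no ratio could pass a threshold of 0.05.

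Sesn2 had the smallest SD of the log2 ratio to Atf4 among the genes seen in 3 libraries. Its log2 ratio was −5.34, −5.18 and −5.11 (mean −5.21 ± 0.12, SD, n = 3). Atf3 had −5.01, −4.49 and −4.89 (−4.80 ± 0.27), and Asns −3.90, −4.84 and −4.14 (−4.29 ± 0.49). In replicate 2 each of these 3 genes rested on 1 count, so their SDs do not rank how steady they were. From replicate 1 to replicate 3 the ratio changed by 0.12 for Atf3 and −0.15 for Xbp1. For Sesn2 it changed by 0.23 and for Asns by −0.23. For Ddit4 the ratio was −3.75 in replicate 1 and −3.39 in replicate 3, for Trib3 −6.28 and −6.34, and for Chac1 −6.86 and −5.86. In replicate 2 these 3 had no count, and the upper ends of the counting intervals of their log2 ratios to Atf4 were −2.16 for Ddit4, −2.44 for Trib3 and −2.06 for Chac1. For 7 of the 9 genes the counting intervals of replicates 1 and 3 overlapped.

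Ddit3 and Atf5 were the exceptions. The log2 ratio of Ddit3 to Atf4 was −2.16 in replicate 1, −0.84 in replicate 2 and −0.40 in replicate 3 (−1.13 ± 0.92, SD, n = 3). That of Atf5 was −2.31, −2.79 and −0.80 (−1.97 ± 1.04). Between replicate 3 and replicate 1 they differed by 1.76 and 1.51 log2 units, and the counting intervals did not overlap. The Ddit3 interval of replicate 2, −2.12 to 0.35, overlapped those of both other libraries. Together Atf5 and Ddit3 made up 24.98%, 35.4% and 50.6% of the summed TPM of the 10 genes, and Atf4 58.7%, 50.3% and 38.0%. Over the 8 genes other than Atf5 and Ddit3, the share of Atf4 was 78.2%, 77.9% and 77.0%.

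**Figure D2:**
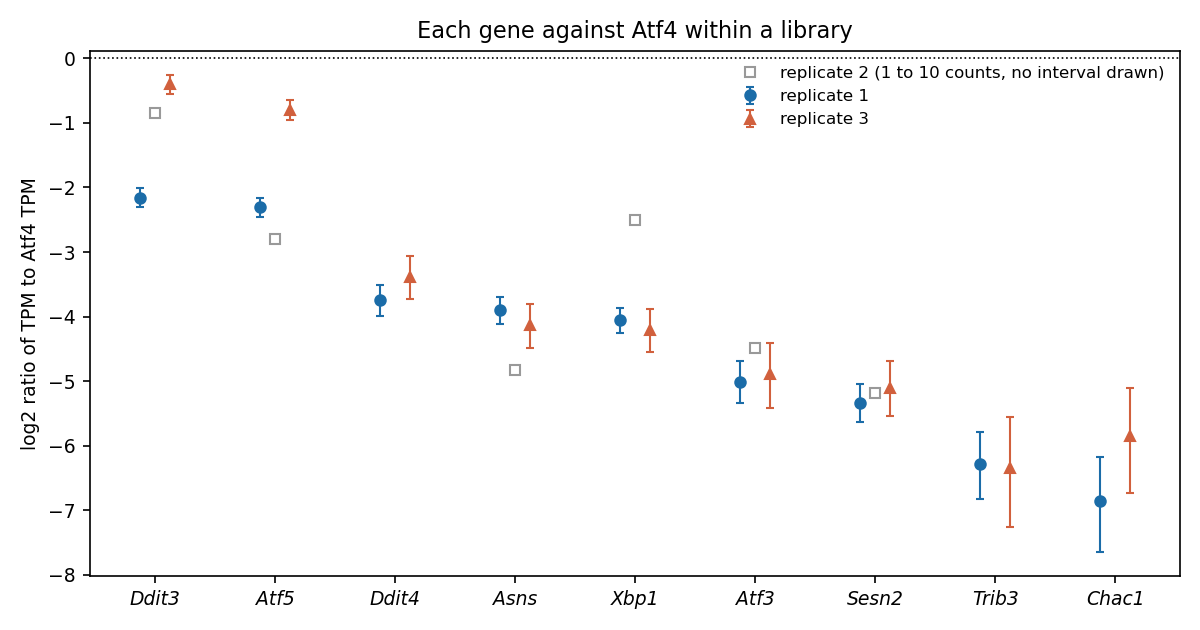
Log2 ratio of each gene's TPM to that of Atf4 within replicates 1, 2 and 3, with 95% counting intervals for the 2 deep libraries; the dotted line is the level of Atf4. Ddit3 (−2.16 in replicate 1, −0.40 in replicate 3) and Atf5 (−2.31, −0.80) are the genes whose intervals in replicates 1 and 3 lie apart.

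Xbp1 lay in the middle of the 10. It was below Atf4 by a log2 ratio of −4.06, −2.50 and −4.21, and above Atf3 by 0.95, 1.99 and 0.68. It was also above Sesn2, by 1.28, 2.68 and 0.90, and in both deep libraries above Trib3 (2.23 in replicate 1, 2.13 in replicate 3) and Chac1 (2.81, 1.65). Against Ddit3 the ratio was −1.90, −1.66 and −3.81, and against Atf5 −1.75, 0.30 and −3.41. Against Asns it was −0.15, 2.34 and −0.07, with counting intervals that include 0 in each library. Against Ddit4 it was −0.31 in replicate 1 and −0.82 in replicate 3. By the exact sign-flip permutation test over libraries, two-sided, p ran from 0.25 to 1.00 over the 8 ratios, and the adjusted p from 0.571 to 1.00. With CPM in place of TPM, the mean ratio to Ddit4 was 0.32 against −0.56. TPM divides by the merged exonic length of a gene, 3248 bases for Xbp1 and 1755 for Ddit4.

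Ddit3 and Atf5 are also the only members of the group whose exons share positions with exons of a gene on the other strand. The counting used strand (setting 1, in which the first read's strand decides the gene). A kit whose first read comes from the other strand would then have its fragments credited to the gene opposite, where exons share positions, and a gene with no opposite exon would keep only its antisense fragments. Which kit was used is not stated in these sources, so this limit holds for every level given here, that of Atf4 included. Ddit3 shares 81 of its 1713 exonic bases (4.73%). Of these, 68 lie in the last of its 4 merged exons and in the untranslated region of Mars, which encodes methionyl-tRNA synthetase (chromosome 10, 127296221 to 127296288), and 13 in the first exon with the non-coding gene Gm4189. Atf5 shares 82 of 1993 bases (4.11%), in the first of 4 merged exons, with Nup62, a nuclear pore gene, and Il4i1, whose product oxidises amino acids (chromosome 7, 44816402 to 44816483). In all of these except Gm4189 the shared bases were untranslated sequence of both genes. In all, 2 of the 10 genes (20.0%) shared positions, against 16.2% of all 50600 genes and 32.2% of the 18759 genes with a count in replicate 1 or 3.

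Mars and Nup62, the partners with the most counts, were lower in replicate 3 than in replicate 1. Mars had 716, 5 and 309 counts, a log2 CPM ratio of replicate 3 to replicate 1 of −0.79. Nup62 had 317, 2 and 127, a ratio of −0.90. Il4i1 had 7, 0 and 16 counts and Gm4189 4, 0 and 1. A second gene named Ddit3 in GENCODE M21 (ENSMUSG00000116429) shares 105 bases with Ddit3 at 100% identity. It was not among the genes counted here, so no fragment was credited to it. Whether it lies at the same place on the genome was not checked. No other member shared a stretch of 100 bases at 95% identity with another gene.

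**Figure D3:**
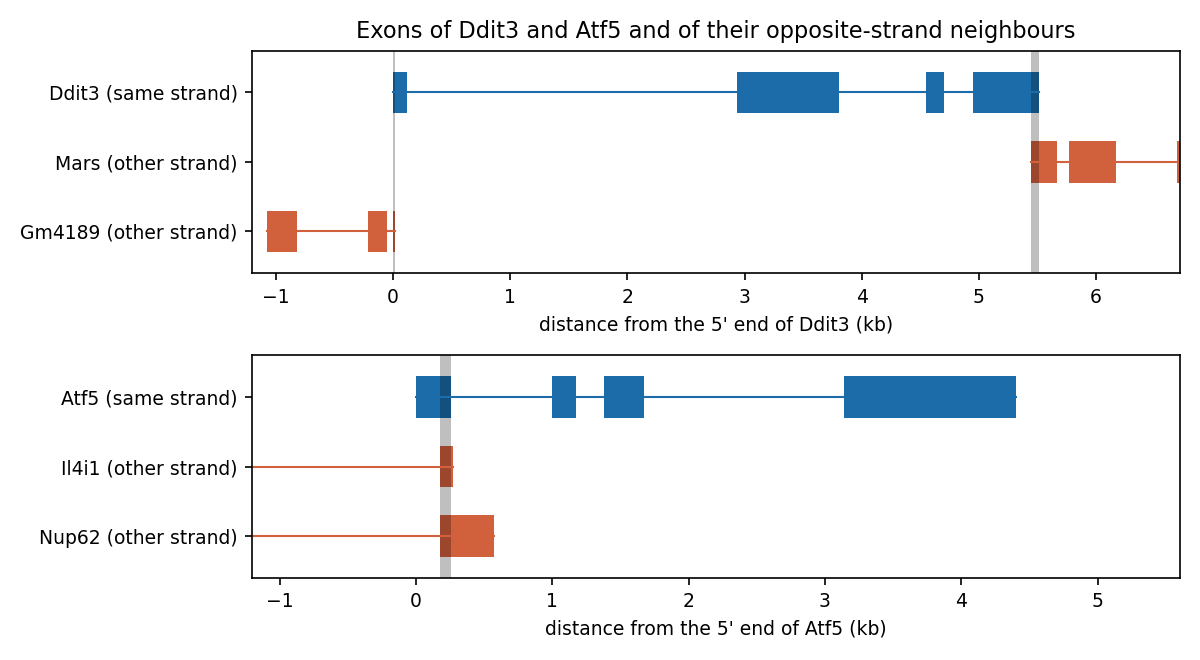
Merged exons (boxes) of Ddit3 and Atf5 and of their neighbours on the other strand, by distance in kb from the member's 5′ end. Grey bands mark the shared exon positions, 81 bases at the ends of Ddit3 and 82 bases of the first exon of Atf5.

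Between replicate 3 and replicate 1, Ddit3 and Atf5 had the highest log2 ratios of the 10 genes. Ddit3 had 181 CPM in replicate 3 and 97.6 CPM in replicate 1, a log2 ratio of 0.89 (95% counting interval 0.72 to 1.07). Atf5 had 160 CPM in replicate 3 and 103 CPM in replicate 1, a log2 ratio of 0.64 (0.46 to 0.82). For Atf4 it was 241 CPM against 439 CPM, a log2 ratio of −0.87 (−0.98 to −0.75). The others ran from −1.10 for Asns to −0.51 for Ddit4, apart from Chac1 at 0.14. The Chac1 interval of −0.99 to 1.25 holds 0 and also the values of Ddit3 and Atf5. Xbp1 was at −1.02, Trib3 at −0.92, Atf3 at −0.75 and Sesn2 at −0.64.

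Other genes, each with at least 50 counts over both libraries, gave the background. The 5851 without opposite-strand exons had a median log2 ratio of −0.84, with quartiles at −1.04 and −0.64. Of these, 5.18% lay above 0. Among the same genes 2.65% were at or above the value of Atf5, against 19.2% of the 2043 genes with up to 10% of their exonic length shared. That is the class of Ddit3 and Atf5, and its median was −0.56 with quartiles at −0.87 and 0.47, so that both genes lay above its upper quartile. The 2117 genes with more than 10% shared had a median of 0.66, quartiles at −0.13 and 0.84, and 73.1% above 0. Atf4, Atf3, Trib3 and Xbp1 lie between the quartiles of the genes that share none. Asns lies below them, and Sesn2, Ddit4 and Chac1 above. Whether the shared positions set their levels was not tested. With totals over genes without opposite-strand exons in place of library totals, 6 rather than 3 members were above 0 and the median of all genes moved by over 0.1 log2 units, to 0.05 against −0.72. A change of scaling adds the same amount to every gene's log2 ratio, so it moves the signs and not the order of the 10.

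**Figure D4:**
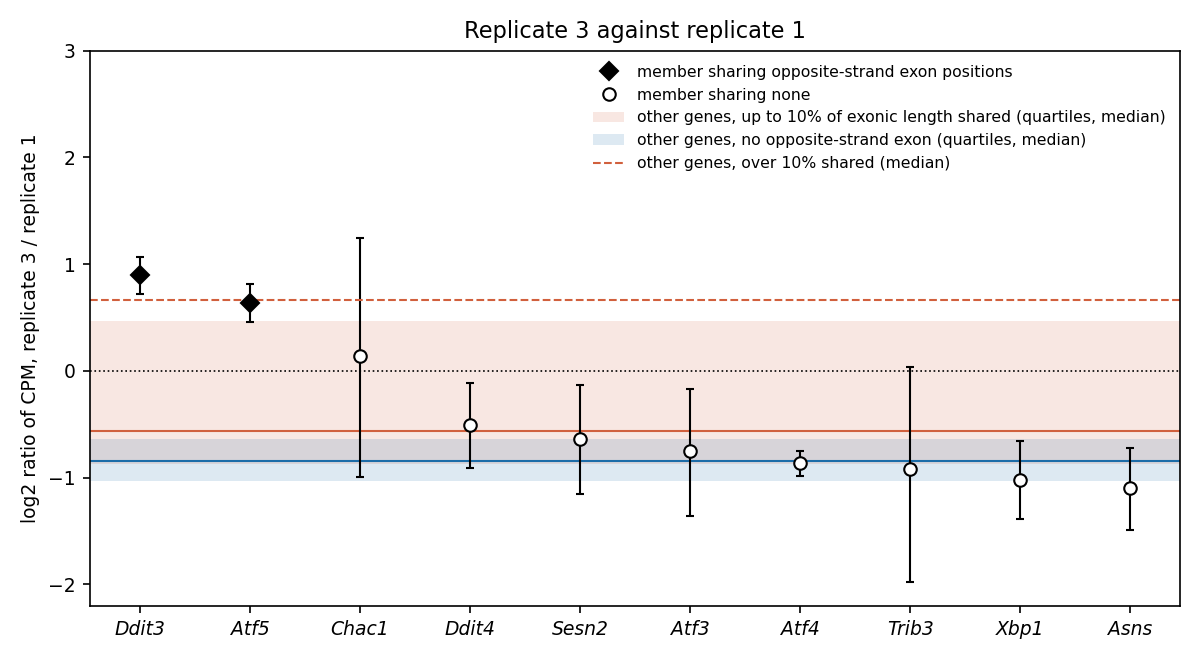
Log2 ratio of CPM, replicate 3 over replicate 1, for each gene with its 95% counting interval; filled diamonds share opposite-strand exon positions and open circles share none. Bands are quartiles of other genes with none shared and with up to 10% shared, solid lines their medians, and the dashed line is the median of genes with over 10% shared. Ddit3 (0.89) and Atf5 (0.64) lie above the band of their own class, up to 10% shared, and Atf4 (−0.87) lies in that of genes with none.

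A chi-square test with TMM scaling (edgeR) set the spread over libraries against counting error, with Benjamini-Hochberg adjustment over all kept genes, at 0.05. The filter kept 7 of the 10 genes. Of all 7406 kept genes, 63.2% varied beyond counting error, and 5 of the 7 members did, which is close to the background. Adjusted p was 1.867e-54 for Ddit3, 6.785e-35 for Atf5, 3.830e-11 for Atf4, 1.361e-03 for Xbp1 and 4.106e-03 for Asns in the chi-square test. Atf3 (adjusted p 0.638) and Sesn2 (0.786) did not pass, which does not show that they were equal. In replicates 1 and 3 alone, 37.9% of 11003 genes passed and 3 of the 10 members did, Ddit3 (4.139e-78), Atf5 (2.715e-52) and Atf4 (6.131e-03). Among genes without opposite-strand exons, in these 2 libraries, 11.6% of 6641 passed. With that scaling none of the 8 members tested passed, and none had an unadjusted p under 0.05. The call for Atf4 therefore depends on which genes set the scale. Without replicate 3 none of 7 members passed, at an unadjusted p under 0.05 or adjusted, while 3.65% of 7427 genes did. Without replicate 1 only Xbp1 passed among 7 by adjusted p, where 9.47% of 7147 genes passed. At an unadjusted p under 0.05, 2 of these 7 did. Over the kept genes, those with opposite-strand exons included, the value that edgeR names the biological coefficient of variation was 0.341. With 1 donor identifier for all 3 libraries, the spread behind it may be technical.

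Most genes upstream of Atf4 and Xbp1 were above 1 TPM in both deep libraries. For comparison, 7469 of the 18775 genes with a count were above 1 TPM in every library and 12243 in both deep ones. The first measure mostly asks for a count in replicate 2, where 1 count of Sesn2, the longest of the 10 by merged exonic length, was already 11.9 TPM. Of 9 genes for eIF2alpha, its kinases and their partners and its phosphatase subunits, 6 were above 1 TPM in every library and 9 in both deep libraries. In replicates 1, 2 and 3, the median log2(TPM + 1) of the 10 genes was 5.20, 4.17 and 3.90, against 3.95, 3.90 and 2.92 for this list and 2.83, 0 and 2.24 for all 18775 genes with a count. Eif2ak1, the haem-regulated kinase HRI, stood at 195, 204 and 260 TPM and shares 11.6% of its length with opposite-strand exons. Eif2s1, which encodes eIF2alpha itself, was at 122, 117 and 52.6 TPM. Eif2ak3, the ER kinase PERK, which is given after its values were seen, was at 9.38 TPM in replicate 1 and 3.62 in replicate 3, with 0 counts in replicate 2. Among the phosphatase subunits that end the response, Ppp1r15b, which shares 11.4%, was at 39.7, 51.7 and 17.1 TPM, and Ppp1r15a, the stress-induced subunit GADD34, at 18.3 TPM in replicate 1 and 6.56 in replicate 3, with 0 counts in replicate 2.

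Of 6 genes for ER sensors and their proteases, 5 were above 1 TPM in every library (median log2(TPM + 1) 3.48, 2.40 and 2.26). Rtcb, the ligase that joins Xbp1 mRNA after IRE1 has cut it, led with 166, 126 and 51.2 TPM. Atf6b was at 36.4, 30.0 and 19.3 TPM, Mbtps1, the site-1 protease that cleaves ATF6, at 12.5, 3.92 and 4.81, and Atf6 at 8.30, 4.47 and 2.97. Ern1, also given after its values were seen, was the gene of this list not above 1 TPM in every library, with 30, 0 and 10 counts, or 1.71 TPM in replicate 1 and 0.62 in replicate 3. Among the C/EBP partners of ATF4, 2 of 4 were above 1 TPM in every library. Cebpd, with 14.9% shared, had 33.4, 22.0 and 44.0 TPM and Cebpg 14.8, 7.35 and 8.03. Cebpb, with 20.7% shared, had 4.66 TPM in replicate 1 and 2.02 in replicate 3, and Cebpa had no count.

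Other known ATF4 targets of amino-acid supply were among the more abundant genes of the pathway. Of 9 synthesis genes 7 were above 1 TPM in every library, with a median log2(TPM + 1) of 6.73, 6.39 and 5.45. The serine pathway enzymes were high: Psph had 228, 200 and 335 TPM (10.4% shared), Shmt2 177, 173 and 62.5, and Phgdh 134, 83.0 and 65.9. Mthfd2, the mitochondrial folate enzyme, was at 140, 94.7 and 61.3 TPM. Of 8 transporters 5 were above 1 TPM in every library (5.48, 5.11 and 4.28). The glutamine carrier Slc1a5 had 102, 49.5 and 44.7 TPM. The pair that forms the leucine carrier had 100, 66.8 and 36.5 (Slc7a5) and 84.8, 81.9 and 48.3 (Slc3a2), and Slc38a2 had 51.3, 44.6 and 19.4. These carriers and enzymes are also induced by T-cell activation, as background. Asns, at 37.7, 15.1 and 14.3 TPM, was below each of these 8 genes in every library, but the 8 were named for having the highest means of their lists. Asns was above Pycr1, Cth, Gpt2, Slc7a11, Slc7a3 and Slc1a4 in both deep libraries.

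Stress-induced targets with no part in amino-acid supply were low, with 2 of 8 above 1 TPM in every library and a median log2(TPM + 1) of 2.60, 0 and 1.80, close to that of all genes. The translation repressor gene Eif4ebp1 had 40.4, 18.8 and 16.9 TPM, Vegfa 17.3, 28.9 and 9.95, and Stc2 9.75 TPM in replicate 1 and 7.35 in replicate 3. Of 23 known XBP1 and ATF6 targets of the ER, 20 were above 1 TPM in every library (median 5.84, 5.74 and 4.84). Calr, a lectin chaperone, had 822, 573 and 433 TPM, Hsp90b1 629, 502 and 293 (10.3% shared), Hspa5, the chaperone BiP, 444, 430 and 189, and Pdia3, a disulfide isomerase, 388, 263 and 156. Of their 20 matched promoters 9 hold the ER stress element (Calr, Canx, Creld2, Derl3, Dnajc3, Hsp90b1, Hspa5, Pdia6 and Syvn1), and 1, Herpud1, the CARE motif. The CARE motif was in 3 of 7 promoters of the stress-induced targets (Fgf21, Nupr1 and Vldlr), 2 of 5 of the transporters (Slc1a4 and Slc7a11) and 1 of 8 of the synthesis genes (Pycr1). Of the relatives of the 10 genes, 7 of 12 were above 1 TPM in every library. Batf, a bZIP factor of T-helper differentiation, led with 198, 43.2 and 87.1 TPM, followed by Atf1 with 41.5, 27.0 and 15.1, Trib1 with 14.2, 21.7 and 5.43, and Atf2 with 11.8, 10.1 and 6.13.

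Among the list genes, the log2 ratio of replicate 3 to replicate 1 had a median of −0.90 over 54 genes with no shared position, and 2 of them (Sec24d and Derl3) were above 0. The 12 genes with up to 10% shared, the range that Ddit3 and Atf5 fall in, also had a median of −0.90, with 3 above 0 (Manf, Syvn1 and Derl2). The 6 with more than 10% had a median of −0.051. Of these Eif2ak1 (0.72), Cebpd (0.70) and Psph (0.85) were above 0, and Hsp90b1 was at −0.80.

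**Figure D5:**
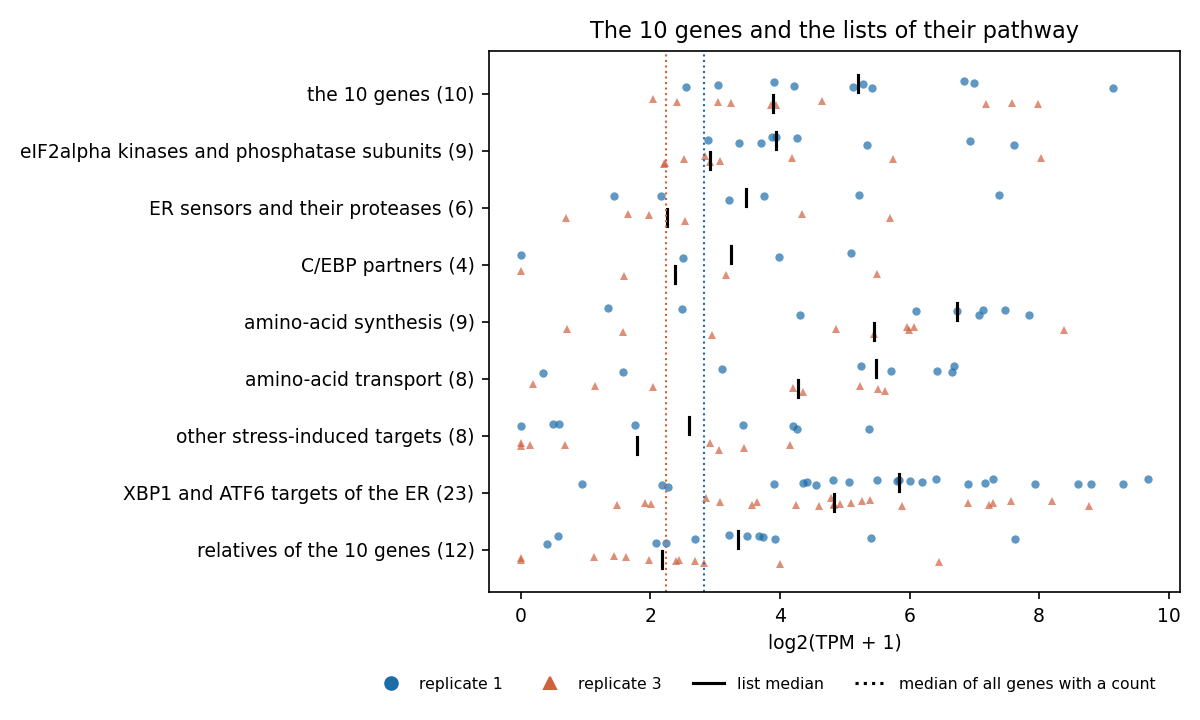
Levels, log2(TPM + 1), of the 10 genes and of each pathway list in replicates 1 and 3; black bars are list medians and dotted lines the medians of all genes with a count. The 10 genes have medians of 5.20 in replicate 1 and 3.90 in replicate 3, the synthesis genes 6.73 and 5.45 and the ER targets 5.84 and 4.84.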

How the data were processed

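The deposited values are raw fragment counts per gene, made by the authors with featureCounts 1.4.6-p4 per the file headers (both ends mapped, strand setting 1, exons summed by gene, GENCODE M13, alignments named star2), on mm10 per the labels. Read trimming and the version of the aligner were not stated. The labels name total RNA-seq while the linked library protocol is named for poly(A)+ RNA. CPM and TPM were computed here from the counts and the deposited gene lengths. Symbols were matched for 50376 of 50600 genes. All count columns belong to these 3 libraries.

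The 10 genes, gene lists and tests were chosen with earlier results of these data known. Named genes were the 10, up to 4 of each list by mean TPM in replicates 1 and 3, list genes with at least 10% shared length and a mean of 10 TPM, the 3 nearest to Atf4, and overlap partners. With 1 group, edgeR's quasi-likelihood test had no contrast, and TMM scaling with a chi-square test replaced it (2 degrees of freedom with 3 libraries). Where replicate 2 enters, expected counts were small (0.889 for Atf3) and the chi-square approximation is rough. The test was also run on simulated counts that held only counting error and set fold changes. That run cannot show how the test behaves with the further spread between these libraries. Count intervals are exact Poisson and ratio intervals exact conditional binomial at 95%; intervals and limits cover counting error only, and a count of 0 allows 3 counts. Ratios of 2 genes used libraries with a count of both. Overlaps came from bedtools 2.31.1. Tools were R 4.3.3, edgeR 4.0.16, DESeq2 1.42.0, Python 3.11.15 and scipy 1.17.1. Alternatives changed the unit, pseudocount, scaling, filter, TPM threshold and replicates. DESeq2 size factors for replicate 3 against replicate 1, and the chi-square test over replicates 1 and 3 without genes sharing opposite-strand exons, were added after seeing the data. Alignments and signal tracks were not used here, and part of the B-cell marker list is not reported here.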

Additional observations from a re-analysis of the deposited data

How the results depend on the processing

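No paired analysis was possible because the study has 1 group. Of the single-gene values under an alternative, 111 kept their direction, though not always their size, 13 moved and 7 reversed. The other counts stayed within 1.5 times in 22 cases and moved further in 5. The mean ratio of Ddit3 to Atf4 without replicate 1, for example, was −0.62 against −1.13. Xbp1 was above 4 other members in TPM and 6 in CPM. The number of genes varying beyond counting error was 4681, and ranged from 271 to 4167 when 1 replicate was left out. It was 570 over genes without opposite-strand exons, and 770 over those genes in replicates 1 and 3 alone, a setting chosen after seeing the data; both test fewer genes. The number of members with a log2 CPM ratio of replicate 3 to replicate 1 above 0 was 3 with library totals and 6 with totals over genes without opposite-strand exons. In that scaling the sign turned for Atf3 (0.020), Ddit4 (0.26) and Sesn2 (0.13), and with DESeq2 size factors, also added after seeing the data, for Ddit4 (0.049). The mean log2 ratio of Xbp1 to Ddit4 was −0.56, but 0.32 in CPM, which has no length, and 1.73 with a pseudocount of 1 TPM, which brings in replicate 2. That of Xbp1 to Asns was 0.70, and ran from −0.11 without replicate 2 to 1.13 without replicate 1. The cause of the other changes was not tested. Depth limits replicate 2 most: Ddit4, Trib3 and Chac1 could not be measured there at the levels of the other libraries.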
